A study of Homo sapiens with 6 samples.

Results

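The proteasome subunit genes were taken as the protein-coding genes whose symbol is PSMA, PSMB, PSMC, PSMD, PSME, PSMF or PSMG followed by digits alone, without the interferon-inducible subunits PSMB8 and PSMB9. The rule found 46 genes among the 21447 genes of the files, and 44 of them passed the filter on low counts, out of 14323 genes tested. PSMA8 and PSMB11, whose products are known from testis and thymus, had an estimated count of 0 or close to 0 in every library and were not tested. Read by its letters alone, the rule would also take PSMC3IP and PSME3IP1, which encode no subunit and are given apart. RNA was sequenced in bulk from U-2 OS, an established human osteosarcoma cell line, in 3 libraries of untreated cells (UT) and 3 libraries of cells that received 4 Gy of ionizing radiation 24 h before collection (IR). No other agent or allele separates the groups in the labels. The comparison of IR with UT addressed how gene expression differed after DNA damage.

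The proteasome degrades proteins that carry a ubiquitin chain. Its core particle is a stack of rings, with outer rings of α-subunits (PSMA genes) that gate the chamber and inner rings of β-subunits (PSMB genes), some of which carry the proteolytic sites. A regulatory particle caps the core, with a base of ATPases (PSMC genes) and scaffold subunits that unfold and feed in the substrate, and a lid (PSMD genes) that removes the ubiquitin. PSME genes encode alternative caps, PSMF1 an inhibitor and PSMG genes chaperones that build the core. After interferon the catalytic β-subunits can be exchanged for PSMB8, PSMB9 and PSMB10, which form the immunoproteasome, and when proteasome activity falls the transcription factor NFE2L1 is known to raise the subunit genes as a group.

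The UT libraries held 18573309, 22953834 and 20670070 estimated counts and the IR libraries 20916100, 19053842 and 45308792, IR replicate 3 being the deepest. That library also stood apart from its group, with a chi-square per gene of 29.1 and 32.3 against the other IR libraries, which differed from each other by 5.96, while UT pairs lay between 3.46 and 9.22. The members called, their median and their fold changes are therefore given with and without it, as are other members that it moved most. The treatment check held in every library, since CDKN1A, the gene of the cell cycle inhibitor p21, had 120.3 to 123.7 CPM (read counts scaled to the library size, with TMM factors) in UT and 322.4 to 390.0 CPM in IR. Of the markers of the labelled cell type, RUNX2, SPP1 and COL1A1 were detected, with 2683 to 3509 CPM for COL1A1. ALPL, at 1.70 to 4.96 CPM, and COL1A2, at 0.98 to 2.14 CPM, were low. RUNX2 was called lower and ALPL higher in IR, whereas SP7 was at 0 and BGLAP and IBSP were near 0. The mesenchymal markers VIM, FN1 and CDH2 were detected. Of the 4 epithelial markers KRT8 and KRT18 were detected at 143.6 CPM or more, and these and CDH1 were called higher in IR while EPCAM, at 8.55 to 10.6 CPM, was not. Among markers of other types, the leukocyte gene CD3E and the liver gene ALB were at 0, with the leukocyte gene PTPRC and the endothelial genes PECAM1 and CDH5 at no more than 1.76 CPM. The part of other cells in the results below was not tested. The study calls the libraries of a group independent samples, but the sources used here do not say whether these were separate cultures, so p-values measure the spread between these libraries, which may be technical.

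The proteasome genes differed little between IR and UT. Of the 44 tested, 3 were called higher (PSMB10, PSME1 and PSME2), 1 was called lower (PSMD1) and 40 were not called, at an adjusted p under 0.05 in edgeR's quasi-likelihood test with Benjamini-Hochberg adjustment over all genes. This is 9.09% of the members, beside 30.1% of all genes tested, of which 15.5% were called higher and 14.5% lower. With an offset that takes out each library's dependence on GC content (the GC trend), the calls were 4 higher (PSMA1, PSMA4, PSMD10 and PSME2) and 0 lower. The members lay between 9.03 and 787 CPM on average, and of the 10200 genes in that range 36.5% were called. Groups did not overlap for 14 members, 31.8%, with 7 higher and 7 lower in IR, beside 47.1% of all genes. Without adjustment 12 members had an edgeR p under 0.05, 6 in each direction, which is 27.3% beside 42.1% of all genes. In bulk RNA, a change in the share of cells that express a gene and a change in RNA per cell cannot be told apart.

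The members' fold changes were also narrow. Their log2 fold change (IR against UT) had a median of 0.04 and a middle range from -0.05 to 0.12, beside a median of 0.01 and a middle range from -0.20 to 0.23 over all genes. Without IR replicate 3 the median of the members was 0.01. In 20 of the 44 the absolute log2 fold change was below 0.1, and in 42 it was below 0.25. The mean standard error (SE) was 0.079 for the members, beside 0.142 over all genes. The middle ranges were not compared among genes in the CPM range of the members. The fitted change was positive for 29 members and negative for 15, and it was positive for 23 of the 44 without that library. A missed threshold does not show that a gene stayed level, but the 95% confidence intervals bound the change. Of the 40 members not called, 20 had an interval within 0.25 of 0 and 39 an interval within 0.5 of 0 on the log2 scale. The highest upper bound among them was 0.54, for PSMA7, and the lowest lower bound was -0.47, for PSMG4.

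**Figure D1:**
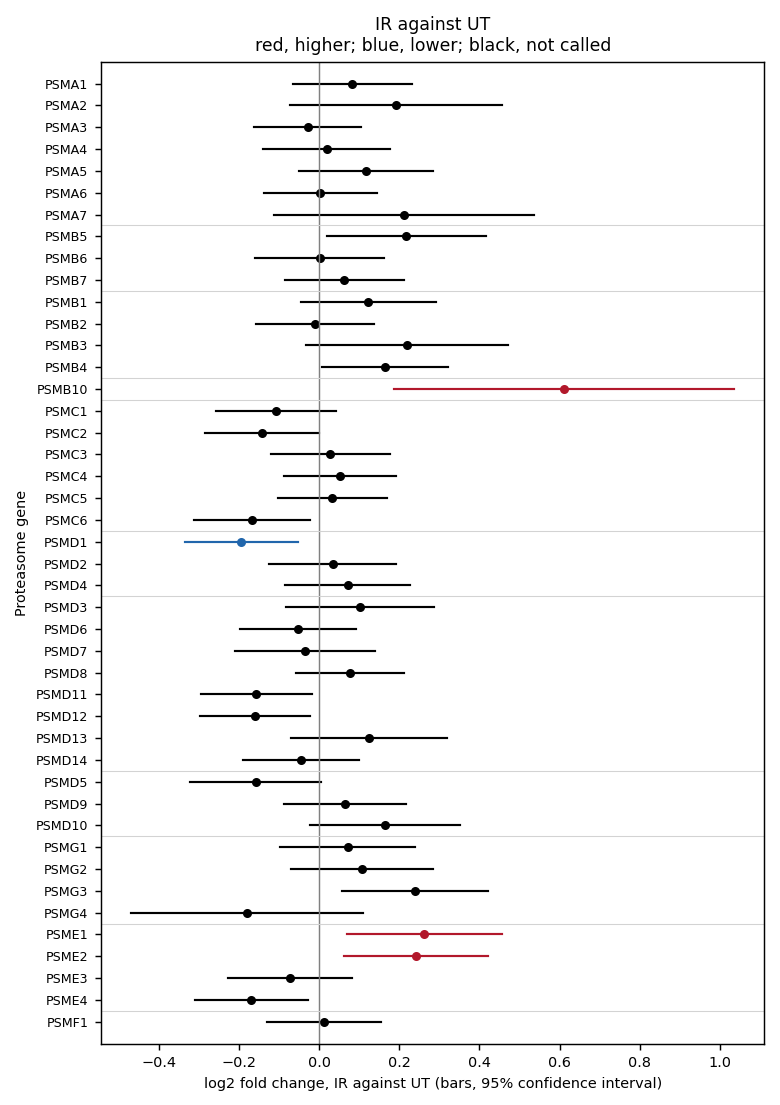
Log2 fold change of IR against UT for the 44 proteasome genes tested, by role from top to bottom, on the x axis, with bars for the 95% confidence interval. PSMB10, PSME1 and PSME2 (red, higher) and PSMD1 (blue, lower) were called, PSMB10 lies furthest from 0 at 0.61, and most black intervals cross 0.

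All 4 calls lay just under the threshold. The adjusted p ranged from 0.0357 to 0.0461 in edgeR, and PSMG3 was just outside it with 0.0509. Of the 17 alternative settings, 8 called PSMB10, 7 PSMD1, 7 PSME1 and 8 PSME2, although the direction was kept in all 17 for each. No member was called when any 1 UT library or IR replicate 2 was left out. Only PSMD1 was called without IR replicate 3, and 7 members were called without IR replicate 1, the 4 above with PSMB5 and PSMG3 higher and PSMD5 lower.

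The heat map of ratios to the UT mean shows how the libraries contributed. The median log2 ratio of the members to the UT mean was -0.03 in IR replicate 1, 0.05 in IR replicate 2 and 0.08 in IR replicate 3. IR replicate 3 lay above both other IR libraries for 24 of the 44 members and below both for 8. Its log2 excess over those libraries reached 0.70 for PSMB10 and 0.63 for PSMA7, beside a median of 0.07 over the members and -0.00341 over all genes.

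**Figure D2:**
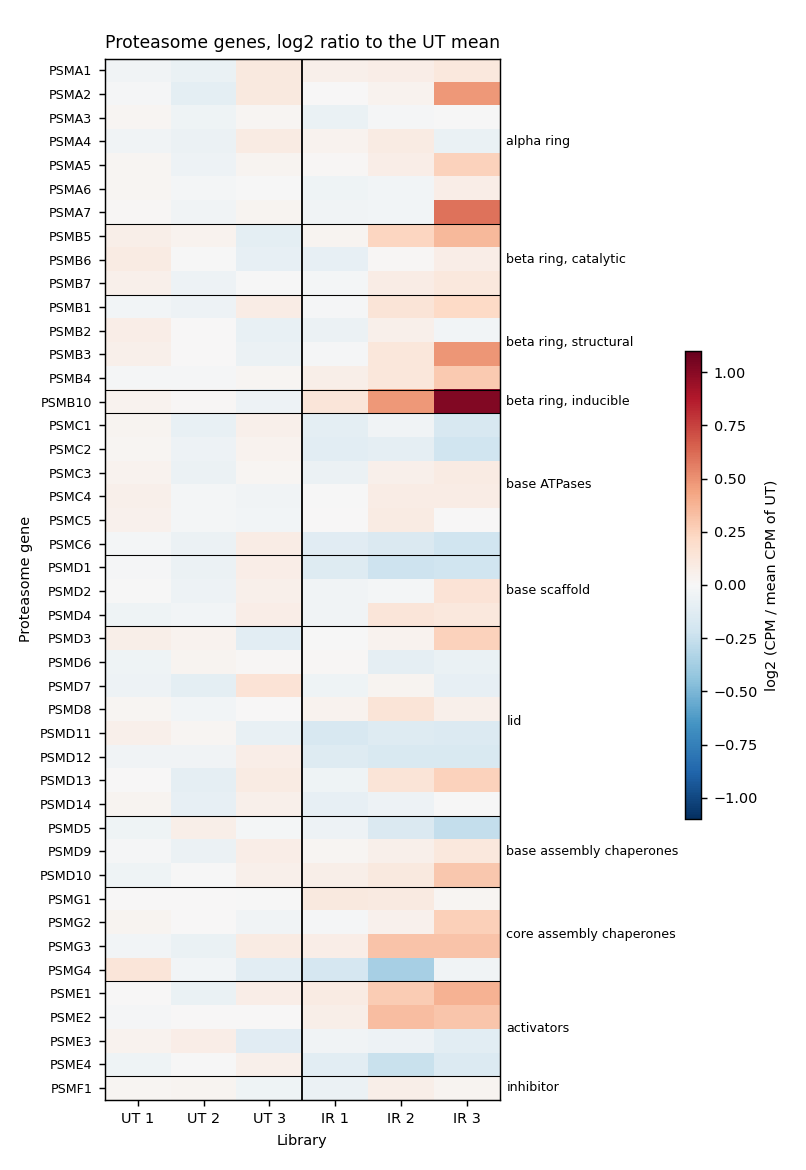
Log2 ratio of CPM in each library (x axis) to the mean CPM of the UT libraries, for each of the 44 proteasome genes tested (y axis, by role), with red for higher and blue for lower. IR replicate 3 holds the strongest reds, at PSMB10, PSMA7, PSMA2 and PSMB3, and the blues of PSMD1, PSMD11, PSMD12 and PSMC6 recur in all 3 IR libraries.

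Per length, the mean share of the transcriptome held by the proteasome genes together was equal in both groups, but this rested on IR replicate 3. Their summed TPM (a level per transcript length, scaled to the library) was 8991 ± 564 in UT and 8987 ± 799 in IR (SD, n = 3), or 0.899% of all TPM in each. By library it was 8823, 8529 and 9619 TPM in UT and 8542, 8511 and 9909 TPM in IR. IR replicate 3 was the highest of all libraries, and the other IR libraries lay below the UT mean. The α-ring genes summed to 2450, 2385 and 2805 TPM in UT and to 2425, 2370 and 3090 TPM in IR, and the β-ring genes to 1588, 1564 and 1597 TPM in UT and to 1549, 1595 and 1980 TPM in IR. In both rings the groups overlapped, and IR replicate 3 was the highest library. The base ATPases summed to 1702, 1581 and 1825 TPM in UT and to 1550, 1546 and 1477 TPM in IR, so the groups did not overlap, with IR the lower. The fit on counts did not show the 6 ATPases lower together. Of them 3 had a positive and 3 a negative log2 fold change, with a median of -0.04, and none was called. Lid genes summed to 1300 ± 59.7 TPM in UT and 1223 ± 92.0 TPM in IR (SD, n = 3), which overlapped. These sums are descriptions and were not tested.

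Subunits that stand once in each ring or cap did not share 1 RNA level. In UT the α-ring genes ran from 172 TPM for PSMA6 to 530 TPM for PSMA2, a ratio of 3.08, and the β-ring genes without the scarce PSMB10 from 125 TPM for PSMB2 to 379 TPM for PSMB1. The ATPases ran from 107 TPM for PSMC4 to 413 TPM for PSMC3, and the lid from 101 TPM for PSMD6 to 210 TPM for PSMD11. The inducible PSMB10 stood at 22.8 TPM in UT. Chaperones of core assembly spread more widely, from 9.49 TPM for PSMG4 to 152 TPM for PSMG2.

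No α-ring gene was called in the main setting, and the groups overlapped for all 7 tested. The log2 fold changes ran from -0.03 for PSMA3 to 0.21 for PSMA7. PSMA7 had 227.9, 220.6 and 230.7 CPM in UT and 221.0, 221.4 and 342.6 CPM in IR. Only IR replicate 3 was high, and without it the log2 fold change of PSMA7 was -0.04. PSMA2 had the same form, with a log2 fold change of 0.19, and 0.01 without that library. PSMA2 shares exons with a same-strand readthrough gene (ENSG00000256646) of 71.9 CPM in UT, and its reads cannot be fully parted from it. With those counts added the log2 fold change of PSMA2 was 0.10, and it was called only with the GC trend removed together with a block for the replicate number, at 0.35 (edgeR adjusted p = 0.0306). PSMA1, at 0.08 in the main setting, was called at 0.24 with the GC trend removed (edgeR adjusted p = 0.0243) and with the block added (edgeR adjusted p = 0.0251). PSMA4, at 0.02, was called at 0.18 with the GC trend removed (edgeR adjusted p = 0.0424).

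Of the subunits that carry the proteolytic sites of the constitutive core, none was called. PSMB5, the chymotrypsin-like site, had 113.7, 111.2 and 100.9 CPM in UT and 110.9, 128.2 and 139.2 CPM in IR. IR replicates 2 and 3 were above every UT library and IR replicate 1 was among them, and the log2 fold change was 0.22 ± 0.089 (SE; edgeR adjusted p = 0.0907), and 0.13 without IR replicate 3. PSMB6, the caspase-like site, had 117.1, 109.9 and 103.5 CPM in UT and 103.3, 111.2 and 116.0 CPM in IR. The PSMB6 groups covered nearly the same range, and its log2 fold change was 0.00 (95% interval -0.16 to 0.16). PSMB7, the trypsin-like site, had 111.6, 103.2 and 106.6 CPM in UT and 105.5, 113.4 and 116.4 CPM in IR. These overlapped too, with a log2 fold change of 0.06 (95% interval -0.09 to 0.21). The structural subunits PSMB1, PSMB2, PSMB3 and PSMB4 ranged from -0.01 to 0.22, and of them PSMB4 alone did not overlap between groups, with 205.9 to 211.0 CPM in UT and 217.8 to 254.1 CPM in IR. Without IR replicate 3 the log2 fold change of PSMB3 went from 0.22 to 0.05 and that of PSMB4 from 0.16 to 0.09.

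PSMB10, the immunoproteasome counterpart of PSMB7 (ENSG00000205220.12, GRCh38 chr16:67934506-67936864, minus strand, 8 exons), rose most among the members. It had 10.9, 10.7 and 10.2 CPM in UT and 11.6, 14.7 and 21.4 CPM in IR. All IR libraries were above all UT libraries, but IR replicate 1 only by a small step and IR replicate 3 by the most. The log2 fold change was 0.61 ± 0.19 (SE; edgeR adjusted p = 0.0357), and it was 0.30 (edgeR adjusted p = 0.101) without IR replicate 3 and 0.30 (edgeR adjusted p = 0.179) with the GC trend removed. The exact two-sided permutation test over libraries gave p = 0.1, the smallest that 3 against 3 libraries allow, for this and the other 3 called genes.

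As kallisto, the authors' quantifier, assigned the reads, the transcripts behind PSMB10 were mostly not coding ones. A retained-intron transcript (ENST00000570985) held 7.80, 8.61 and 8.01 CPM in UT and 8.96, 10.1 and 14.7 CPM in IR, while the protein-coding transcript ENST00000358514 held 1.37, 0.62 and 0.49 CPM in UT and 0.87, 2.34 and 5.31 CPM in IR, all scaled by the same library sizes as the gene. For the coding transcript the groups overlapped, with IR replicate 3 far above the rest. Counting protein-coding transcripts alone gave a log2 fold change of 1.77 with an edgeR adjusted p of 0.0847. PSMB10 also shares 39.4% of its exonic bases with a same-strand readthrough gene (ENSG00000261884) of 5.18 to 7.70 CPM, and with those counts added its log2 fold change was 0.46 (edgeR adjusted p = 0.0324).

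PSME1 and PSME2 encode the α and β chains of PA28, the ring that caps the core in place of the regulatory particle and is known from antigen presentation. PSME1 (ENSG00000092010.15, GRCh38 chr14:24136163-24138967, plus strand, 11 exons) had 41.0, 38.8 and 43.1 CPM in UT and 43.6, 49.8 and 53.6 CPM in IR. Its groups touched closely, IR replicate 1 lying just above UT replicate 3, and the log2 fold change was 0.26 ± 0.087 (SE; edgeR adjusted p = 0.0446). PSME2 (ENSG00000100911.16, GRCh38 chr14:24143362-24147570, minus strand, 11 exons) had 50.2, 50.7 and 50.7 CPM in UT and 52.9, 63.8 and 62.4 CPM in IR. UT libraries were nearly equal and each IR library was above them, with a log2 fold change of 0.24 ± 0.081 (SE; edgeR adjusted p = 0.0461). Without IR replicate 3 the log2 fold changes were 0.18 for PSME1 (edgeR adjusted p = 0.116) and 0.20 for PSME2 (edgeR adjusted p = 0.0904). With the GC trend removed PSME2 was still called, at 0.23 (edgeR adjusted p = 0.0429), and PSME1 was not, at 0.22 (edgeR adjusted p = 0.0669). Protein-coding transcripts alone gave 0.41 for PSME1 (edgeR adjusted p = 0.114) and 0.28 for PSME2 (edgeR adjusted p = 0.0615). PSME2 has 6 pseudogenes in the annotation, among 17 of the 46 members with any, and reads shared with such copies are uncertain.

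The other caps were not called. PSME3, the nuclear PA28γ, had 180.5, 185.0 and 161.6 CPM in UT and 170.7, 168.7 and 161.9 CPM in IR, which overlapped, with a log2 fold change of -0.07 (95% interval -0.23 to 0.08). PSME4, the single-chain activator PA200, had 217.3, 223.8 and 233.1 CPM in UT and 207.6, 190.1 and 202.0 CPM in IR. Every IR library of PSME4 was below every UT library, and the log2 fold change was -0.17 ± 0.064 (SE; edgeR adjusted p = 0.0700). PSMF1, the inhibitor PI31, had 123.0, 123.7 and 117.3 CPM in UT and 116.3, 127.2 and 123.6 CPM in IR, which overlapped, with a log2 fold change of 0.01 (95% interval -0.13 to 0.15).

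**Figure D3:**
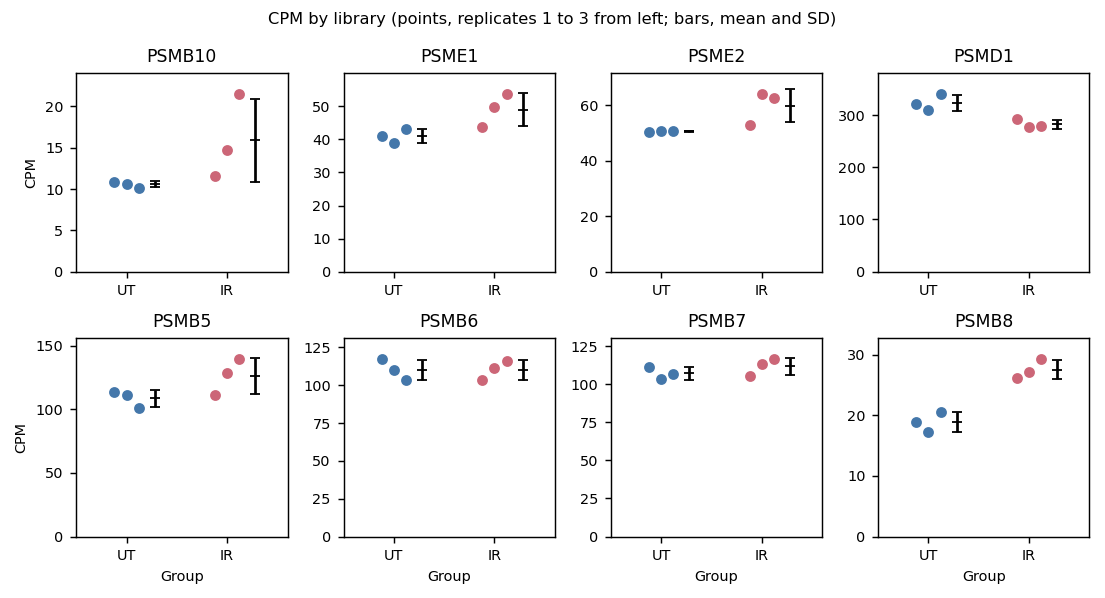
CPM (y axes, from 0) of 7 proteasome genes and of PSMB8 in UT and IR, with a point for each library in the order of the replicate numbers and bars for mean and SD. PSMB10, PSME1, PSME2 and PSMB8 were higher and PSMD1 lower in all IR libraries, while the points of PSMB5, PSMB6 and PSMB7 overlap.

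PSMD1, the large scaffold subunit of the base (ENSG00000173692.14, GRCh38 chr2:231056845-231173116, plus strand, 25 exons), was the member that fell. It had 320.9, 309.6 and 339.4 CPM in UT and 292.8, 276.4 and 278.3 CPM in IR. No IR library reached the lowest UT library, and the log2 fold change was -0.19 ± 0.064 (SE; edgeR adjusted p = 0.0423), with -0.19 (edgeR adjusted p = 0.0439) without IR replicate 3. With the GC trend removed it was -0.09 (edgeR adjusted p = 0.235). Its main coding transcript, ENST00000308696, had 223.4, 231.5 and 258.1 CPM in UT and 201.5, 209.3 and 251.9 CPM in IR, so the groups of that transcript overlapped. Another coding transcript, ENST00000678679, had 0.16, 51.2 and 20.7 CPM in UT and 38.9, 42.7 and 0 CPM in IR. The split of reads between these transcripts thus varied between libraries, and the overlap of the main one alone is uncertain. Protein-coding transcripts alone gave -0.11 (edgeR adjusted p = 0.472).

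Of the other regulatory particle genes none was called. Groups did not overlap for 6 of the 17 base and lid genes, 35.3% beside 47.1% of all genes tested. These were PSMD1 with PSMC2, PSMC6, PSMD11 and PSMD12, lower in IR, and PSMD8, higher. PSMC6, an ATPase, had the lowest fold change among those not called, -0.17 (edgeR adjusted p = 0.0773), followed by the lid subunits PSMD12 and PSMD11, each at -0.16. With the GC trend removed these were 0.00 for PSMC6, 0.02 for PSMD12 and -0.09 for PSMD11, so PSMC6 and PSMD12 were no longer below 0. PSMD14, the deubiquitinase of the lid, had 173.7, 160.1 and 177.5 CPM in UT and 160.4, 164.3 and 170.4 CPM in IR. These overlapped, and its log2 fold change was -0.05 (95% interval -0.19 to 0.10). PSMC1 shares 76.1% of its exonic bases with NRDE2 on the other strand, so its -0.11 is uncertain, since the sources used here do not say whether counting used strand.

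Assembly chaperones were not called either in the main setting. PSMG3, a core chaperone, had a log2 fold change of 0.24 ± 0.082 (SE), with 63.2 to 70.5 CPM in UT and 69.9 to 82.3 CPM in IR, so the groups overlapped. PSMG1 and PSMG2 stood at 0.07 and 0.11, and PSMG4 at -0.18 on under 11 CPM in every library, with 0.28 under the length offset. Among chaperones of the base, PSMD5 had -0.16, PSMD9 0.06 and PSMD10 0.16, and the groups of PSMD5 (lower) and PSMD10 (higher) did not overlap. Without IR replicate 3 the values of PSMG2 and PSMD10 were 0.01 and 0.08. With the GC trend removed PSMD10 was called, at 0.33 (edgeR adjusted p = 0.0295). PSMG3 was called in 5 of the 17 alternatives, and it was 0.04 with the GC trend removed.

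The core and regulatory particle genes were set side by side as a description. Of the 15 core genes tested 13 had a positive log2 fold change, with a median of 0.12 and 1 called, and of the 17 base and lid genes 8 had a positive one, with a median of -0.03 and 1 called. Without IR replicate 3 the medians were 0.03 and -0.04, and 10 of 15 and 6 of 17 were positive. With protein-coding transcripts alone the medians were 0.05 and 0.02, and without UT replicate 3 they were 0.14 and 0.02, so the sign of the regulatory median depended on these choices. The ratio of mean TPM of core to regulatory genes was 1.19, 1.22 and 1.18 in UT and 1.24, 1.25 and 1.54 in IR. All IR libraries were thus above all UT libraries in this ratio, with IR replicate 3 far from the other two. The difference between particles was not tested.

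Fold changes moved with the base composition and length of transcripts, over all genes and over the members. Across the 14323 genes, Spearman's rho of the log2 fold change was 0.5 with GC content and -0.343 with length. Across the 44 members it was 0.375 and -0.639, as a description over genes that share the same 6 libraries. The members had a median GC content of 48.7% beside 48.6% over all genes, and a median length of 1100 bases beside 2140. PSMB10 had 62.02% GC and 638 bases, PSME1 52.2% and 780, PSME2 50.7% and 833, and PSMD1 43.8% and 3040. After removal of the GC trend, rho with GC content over the members was -0.369. The part of GC content and length in the calls was not tested beyond these settings.

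**Figure D4:**
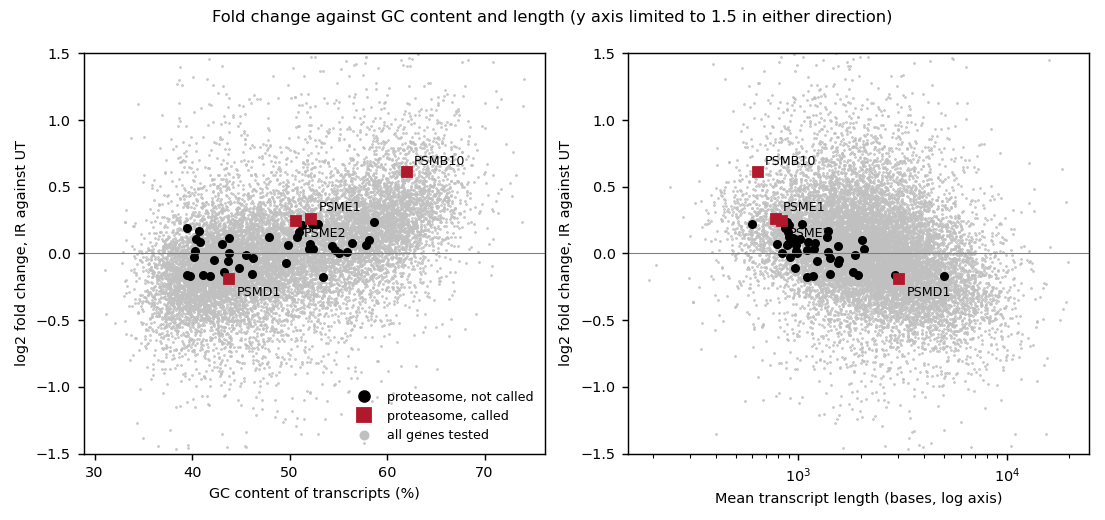
Log2 fold change of IR against UT (y axis, shown to 1.5 in either direction, with 74 genes beyond) against the GC content of transcripts in percent (left) and the mean transcript length in bases on a log axis (right). Grey points are all genes tested, black points proteasome genes not called and red squares those called, PSMB10 being GC-rich and short and PSMD1 long.

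Within genes, no shift between transcripts was called for a member with all libraries in the fit. Of 43 members with more than 1 transcript tested, 0 passed an adjusted p under 0.05 in edgeR's diffSpliceDGE with Simes' method, beside 2.67% of the 10666 genes tested, and 1 had an unadjusted p under 0.05. That gene was PSMD1, with an edgeR adjusted p of 0.110. Its retained-intron transcript ENST00000678837 had 12.4, 3.26 and 17.7 CPM in UT and 0 in all 3 IR libraries. With 1 library left out, other members were called by the same test. These were PSMA1 and PSME4 without UT replicate 3 (edgeR adjusted p = 0.0393 and 0.00314) and PSMD6 without IR replicate 1 (edgeR adjusted p = 0.0428). Without IR replicate 2 they were PSMA1 and PSMD9 (edgeR adjusted p = 0.00105 and 0.0436).

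Promoter windows of 250 bases before to 50 bases after the RefSeq start (GRCh38.p14) were found for 40 of the 46 members. They were searched on both strands for 5 motifs that are known to act at proteasome or interferon-inducible genes, and matches of different motifs may overlap. The interferon-stimulated response element core, searched as GAAA, NN and GAAA in a row with N for any base, was held by 6 members, PSMA4, PSMB4, PSMB10, PSME1, PSME2 and PSMG4, which is 15% of the member windows beside 3.57% of all 35116 windows and 2.83% of those of tested genes. The antioxidant response element core, TGACNNNGC, which NFE2L1 and NFE2L2 are known to bind, was held by 12 members, 30% beside 13.3% of all windows and 14.7% of those of tested genes. The ETS site CCGGAAG was held by 32.5% beside 10.3% and 18.3%, the CCAAT box by 45% beside 34.6% and 36.4%, and the gamma-activated site TTCNNNGAA by 12.5% beside 7.66% and 6.33%.

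All 3 members called higher in the main setting held the interferon-stimulated core. They held the same 10 letters, which also stood in PSMG4, a member that was not called. These were GAAAGCGAAA at position -21 from the start in PSMB10 and at -28 in PSME2, and their reverse complement TTTCGCTTTC at position 5 in PSME1. PSMG4 held GAAAGCGAAA at -33 and had a log2 fold change of -0.18, so the string did not mark the higher members alone. PSMA4 and PSMB4 held the core with other middle letters and were not called in the main setting, with 0.02 and 0.16. With the GC trend removed PSMA1, PSMA4, PSMD10 and PSME2 were called higher, and of these PSMA4 and PSME2 held the core. No member was called higher without IR replicate 3. PSMD1 held an antioxidant core at position 39 and no interferon-stimulated core. A match is a string of letters and not a measured binding site. The windows of the called members are shown for the place of this string and of the antioxidant core, 5′ to 3′ on the strand of the gene, with the interferon-stimulated and antioxidant cores in capitals. They lie at chr16:67936801-67937100 (minus strand) for PSMB10, chr14:24135944-24136243 (plus) for PSME1, chr14:24146561-24146860 (minus) for PSME2 and chr2:231056617-231056916 (plus) for PSMD1.
PSMB10: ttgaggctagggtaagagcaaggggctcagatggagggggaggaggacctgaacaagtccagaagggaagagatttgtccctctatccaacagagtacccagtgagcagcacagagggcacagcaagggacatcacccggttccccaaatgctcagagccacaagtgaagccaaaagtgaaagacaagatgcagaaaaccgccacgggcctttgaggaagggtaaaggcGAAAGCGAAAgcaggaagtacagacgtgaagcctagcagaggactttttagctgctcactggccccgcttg
PSME1: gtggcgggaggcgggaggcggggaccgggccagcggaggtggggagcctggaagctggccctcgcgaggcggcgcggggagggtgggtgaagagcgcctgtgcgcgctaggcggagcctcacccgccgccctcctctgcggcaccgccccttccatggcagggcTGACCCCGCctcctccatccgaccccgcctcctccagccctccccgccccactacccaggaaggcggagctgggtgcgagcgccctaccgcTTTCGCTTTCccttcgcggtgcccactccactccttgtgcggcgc
PSME2: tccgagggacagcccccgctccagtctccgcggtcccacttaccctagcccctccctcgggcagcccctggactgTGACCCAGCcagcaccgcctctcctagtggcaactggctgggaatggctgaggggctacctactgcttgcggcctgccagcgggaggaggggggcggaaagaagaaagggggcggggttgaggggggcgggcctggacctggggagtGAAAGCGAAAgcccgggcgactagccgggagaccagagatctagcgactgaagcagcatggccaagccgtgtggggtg
PSMD1: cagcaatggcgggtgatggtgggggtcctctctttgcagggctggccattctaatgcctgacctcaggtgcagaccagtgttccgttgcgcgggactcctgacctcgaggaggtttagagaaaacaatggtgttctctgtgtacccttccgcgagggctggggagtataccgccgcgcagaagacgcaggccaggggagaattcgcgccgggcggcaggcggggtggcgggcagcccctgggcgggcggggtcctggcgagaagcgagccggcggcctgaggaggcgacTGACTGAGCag

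The genes lie scattered over 17 chromosomes, with 8 on chromosome 14 (17.4% of the members, beside 3.32% of the genes tested) and 7 on chromosome 17 (15.2% beside 6.03%). PSME1 and PSME2 lie close together on chromosome 14. The others there, PSMA3, PSMA6, PSMB5, PSMC1 and PSMC6 with the untested PSMB11, had log2 fold changes between -0.17 and 0.22 and none was called.

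Other genes of the ubiquitin-proteasome pathway moved in both directions. Of 33 tested, 4 rose and 4 fell, which is 24.2% beside the 30.1% of all genes, and the difference from the subunit genes was not tested. With IR replicate 3 left out, 2 were called higher and 5 lower, beside 1796 higher and 1986 lower of all 14495 genes then tested. PSMB8, the immunoproteasome counterpart of PSMB5, had 18.9, 17.2 and 20.6 CPM in UT and 26.2, 27.2 and 29.3 CPM in IR. Its groups were well apart, IR replicate 3 was close to the other IR libraries, and the log2 fold change was 0.55 ± 0.090 (SE; edgeR adjusted p = 0.00236), called in all 17 alternatives. PSMB9, the third inducible subunit, had 2.74 to 3.51 CPM in UT and 3.49 to 3.87 CPM in IR, which overlapped (edgeR adjusted p = 0.382).

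Among assembly factors, POMP, which matures the core particle, had 63.6, 64.1 and 66.8 CPM in UT and 71.2, 72.7 and 84.6 CPM in IR. The groups did not overlap, and it rose by a log2 fold change of 0.24 (edgeR adjusted p = 0.0462). With IR replicate 3 left out, the log2 fold change of POMP was 0.14 and it was not called (edgeR adjusted p = 0.115). RPS27A, which encodes ubiquitin fused to a ribosomal protein, rose by 0.36 (edgeR adjusted p = 0.0276). Those that fell were ECPAS, a proteasome adaptor, by 0.34 on the log2 scale (edgeR adjusted p = 0.00354), the shuttle receptors RAD23B by 0.28 (edgeR adjusted p = 0.00866) and UBQLN1 by 0.28 (edgeR adjusted p = 0.0152), and DDI2, the protease that activates NFE2L1, by 0.35 (edgeR adjusted p = 0.0173). ECPAS had 115.0, 118.4 and 116.3 CPM in UT and 96.1, 90.9 and 89.1 CPM in IR, so every IR library was below every UT library. Of the 17 alternatives 16 called ECPAS and RAD23B, 14 UBQLN1, 12 DDI2 and RPS27A and 8 POMP, and the log2 fold change ranged from -0.47 to -0.18 for RAD23B, from 0.21 to 0.45 for RPS27A and from 0.14 to 0.53 for POMP. RPS27A has 19 pseudogenes in the annotation and DDI2 shares exons with RSC1A1 on the same strand, so their reads are uncertain.

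NFE2L1 itself had 414.5, 413.7 and 388.8 CPM in UT and 396.6, 409.9 and 381.4 CPM in IR. These overlapped, with a log2 fold change of -0.04 ± 0.062 (SE; edgeR adjusted p = 0.701). The symbols left out of the members, PSMC3IP and PSME3IP1, had log2 fold changes of -0.19 (edgeR adjusted p = 0.116) and -0.06 (edgeR adjusted p = 0.664), and counting them would leave the calls as they are.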

How the data were processed

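Per the study's methods, the authors trimmed adaptors with fastp and pseudoaligned reads with kallisto to GENCODE release 37 (GRCh38). The kallisto version is not given in the sources used here, the paper names a total RNA kit and the labels an mRNA kit. The deposited files give, per transcript and library, an estimated count that was not normalized, a TPM value which the authors scaled to the effective length and to the sum of the library, and the lengths.

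Here 158711 of 161171 transcripts matched GENCODE release 44 by ID and were summed to 21447 genes, and the sums were rounded. IR was compared with UT by edgeR 4.0.16 (R 4.3.3, limma 3.58.1) with TMM, filterByExpr, the quasi-likelihood test and Benjamini-Hochberg adjustment over all genes tested, at 0.05, and intervals are at 95%. DESeq2 1.42.0 was an alternative, among filters, size factors, a loess GC offset, a length offset, protein-coding transcripts alone, a replicate block and each library left out. Depth per library is given in the report, and low counts limit PSMB10, PSMG4 and PSMB9 most. TPM sums were used for levels, with no test. Scripts were tested on simulated data.

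Library values are given for called members and for PSMB5, PSMB6, PSMB7, PSMB10, PSMD14, PSME1, PSME2, PSME3, PSME4 and PSMF1, and pathway genes were named where called, with NFE2L1 and POMP, except for genes not reported here. PSMA7, PSMA2, PSMG3 and PSMB4 and the transcripts of PSMB10 and PSMD1 were chosen after their values were seen. The members and lists were chosen with earlier results of these data known.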

Additional observations from a re-analysis of the deposited data

How the results depend on the processing

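The direction of PSMB10, PSMD1, PSME1, PSME2, PSMB5 and PSMB7 was kept in all 17 alternatives. With any 1 library left out, the count of members called higher ran from 0 to 5 and lower from 0 to 2, pathway genes higher from 1 to 5 and lower from 2 to 6, members with shifted transcript usage from 0 to 2, and all genes from 1295 to 2114 higher and from 1244 to 2284 lower. The length offset left 833 genes higher and 875 lower, with 0 members and 1 pathway gene higher. Protein-coding transcripts alone left 1277 genes higher, 0 members and 1 pathway gene. Correlations of deviations were -0.00989, -0.0307 and -0.0659 for libraries of the same replicate number. For libraries of unlike number they ran from -0.0384 to 0.0592. These values show no pairing by replicate number but cannot exclude it. With the replicate block 1 member was higher and 0 lower, 2 pathway genes were higher, and 1727 and 1624 of all genes were higher and lower, and with block and GC trend removal 1462 genes were higher. Members called lower were 0 without the filter, with the block, with the GC trend removed with or without the block, with the length offset and with coding transcripts alone, and 2 in the DESeq2 Wald test. The GC trend removed gave 7 pathway genes lower. PSMB6 changed sign with DESeq2 size factors (-0.005137), in the Wald test (-0.004862), with the GC trend removed (-0.1005, and -0.09983 with the block) and with coding transcripts (-0.01295), and ran from -0.04862 to 0.04677 with a library left out. PSMD14 turned to 0.08503 and 0.08248 with the GC trend removed without and with the block, PSME4 to 0.05647 with the length offset, and PSMF1 to -0.1111 and -0.1109 with the GC trend removed without and with the block and -0.08384 with coding transcripts, with -0.0173 to 0.03206 with a library left out. The cause was not tested. Adding readthrough counts, an alternative chosen after seeing the data, kept the same 4 calls.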
